A study of Mus musculus with 12 samples.

Results

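Islets of non-pregnant mice that lack the prolactin receptor (Prlr-/-) were compared with islets of non-pregnant wild-type mice (Prlr+/+) on the Affymetrix MoGene_1.0_ST array. The test ran over all probe sets, and the description follows those that carry a gene name. The labels gave 3 arrays in each genotype, 6 of the 12 arrays of the series, each called a biological replicate. All mice were on the 129Sv background, none of these 6 arrays came from a pregnant mouse, and no hormone pellet is described for the non-pregnant groups. The knockout affects every tissue of the mouse and is not restricted to islet cells, and whether islets of several mice were pooled for an array is not given in the sources used here. The table holds 35511 probe sets, of which 23410 name at least 1 gene, and 19938 genes have a probe set of their own. Where a gene has several such probe sets, it is represented by the one with the highest mean over the 12 arrays.

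The prolactin receptor is a cytokine receptor that binds prolactin and the placental lactogens. It has no kinase of its own and signals through the kinase JAK2, which phosphorylates STAT5, and STAT5 then enters the nucleus and switches on targets such as Cish and Socs2, feedback inhibitors of the same pathway. In islets the receptor is known for the growth and the higher insulin secretion of beta cells in pregnancy, and this comparison asks what the islet transcriptome looks like without the receptor before pregnancy begins.

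The values are log2 expression values in steps of 0.1 that the authors made by robust multichip analysis. Across all probe sets the arrays correlated at 0.979 to 0.986 within a genotype (6 pairs) and at 0.972 to 0.985 between genotypes (9 pairs). The median of all probe sets was 5.9 on each Prlr-/- array and 5.8 on each Prlr+/+ array. Centring the arrays on their medians therefore shifts every log2 fold change by -0.1. These medians come in steps of 0.1, while the array means were 6.058 to 6.069 in Prlr-/- and 6.024 to 6.043 in Prlr+/+ islets. After quantile normalization the median log2 fold change over all probe sets was -0.0167. The targeted gene could not be followed, since no probe set carries the symbol Prlr in the annotation used here, so the genotype was taken from the labels. Endocrine hormones were measured at similar levels in both genotypes. Ins2, an insulin gene, was at 10.6 to 11 on the Prlr+/+ arrays and at 10.9 to 11 on the Prlr-/- arrays, and Gcg, the glucagon gene, at 13.4 to 13.7 and at 13.7 to 13.9. RNA of other pancreatic cells was present on every array, as described with the marker lists.

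Calls required a difference of 1.5-fold or more together with an adjusted p below 0.05 in limma (Benjamini-Hochberg over the whole array). By this rule 36 probe sets, 0.101% of those tested, differed, 33 of them higher and 3 lower in Prlr-/- islets. The named ones were 25, of which 19 name Ifnz. Ifnz encodes a member of the type I interferon family, secreted proteins that act through the receptor Ifnar1 and Ifnar2. Every probe set of the array that names Ifnz was called. On the probe set for Ifnz alone, values were 6.4, 6.9 and 6.5 in Prlr+/+ replicates 1 to 3 and 8.8, 8.4 and 9.2 in Prlr-/- replicates 1 to 3. The lowest Prlr-/- array lay well above the highest Prlr+/+ array, with a log2 fold change of 2.20 and a standard error of 0.194 (adjusted p = 0.000946, limma).

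The other 18 probe sets name Ifnz together with predicted genes. Of these, 3 name Ifnz and Gm13274, with log2 fold changes of 2.17 to 2.23, and 15 name Ifnz with Gm13271, Gm13272, Gm13275, Gm13288 and Gm13290, with log2 fold changes of 1.20 to 1.57. The 15 were at 5.2 to 6.3 on the Prlr+/+ arrays and at 6.6 to 7.8 on the Prlr-/- arrays. They are not separate measurements, since the 19 probe sets hold only 13 distinct sets of values over these 6 arrays and each of the 18 names more than 1 gene. A probe set that names Gm13274 alone was at 5.5, 5.3 and 5.5 in Prlr+/+ and at 5.9, 6.0 and 5.8 in Prlr-/- islets, which at a log2 fold change of 0.47 was not called (adjusted p = 0.125, limma). Which members of this interferon cluster account for the signal cannot be told apart with these probe sets.

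**Figure D1:**
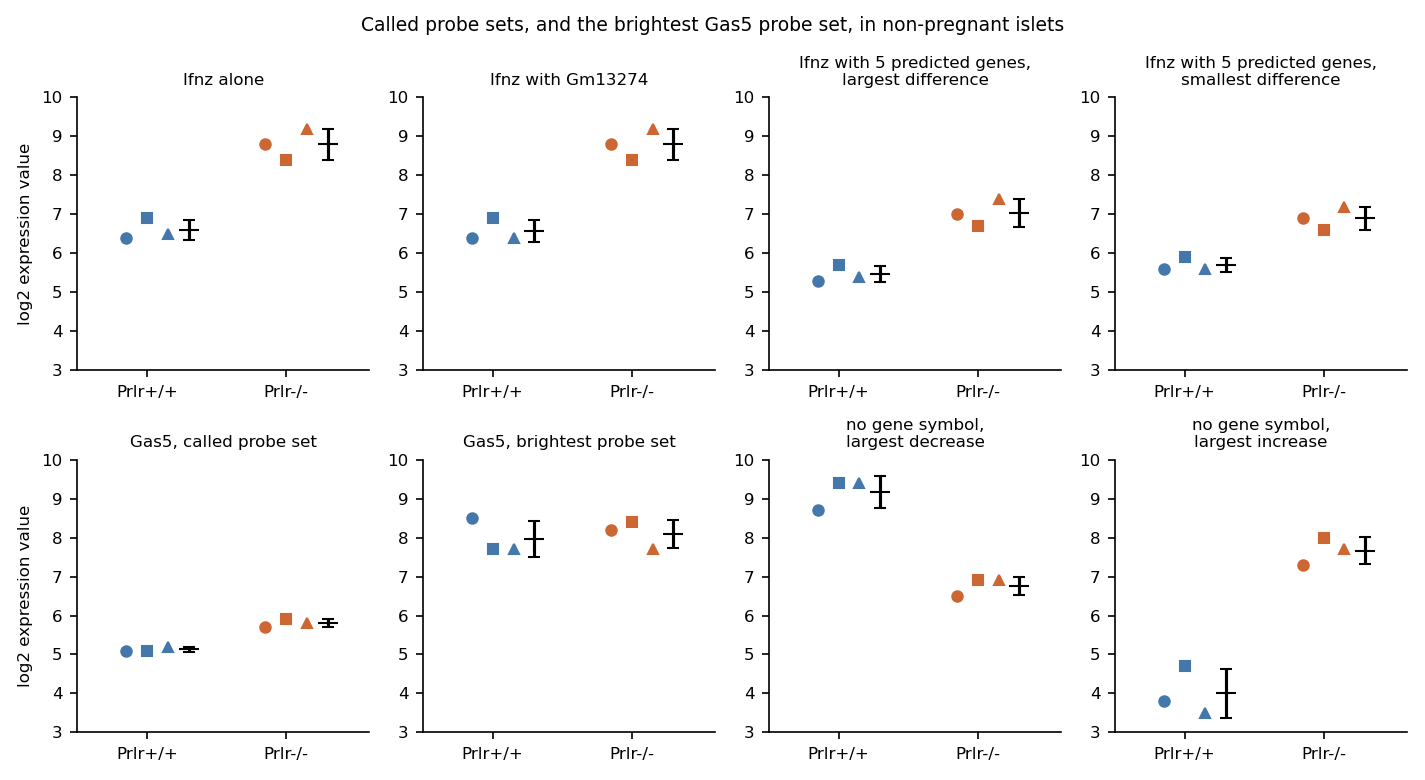
Each panel shows the log2 expression value of 1 probe set on the 3 Prlr+/+ (blue) and 3 Prlr-/- (orange) arrays, with circles, squares and triangles for replicates 1 to 3 and the mean ± SD (n = 3) beside them. The probe sets that name Ifnz lie higher on all Prlr-/- arrays (8.4 to 9.2 against 6.4 to 6.9 for Ifnz alone), whereas the brightest Gas5 probe set overlaps between genotypes.

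The promoter windows of Ifnz and of Ifna2, another type I interferon gene of the same cluster, are shown because Ifnz was called and Ifna2, a neighbour of the same family, was not. Each window covers 300 bases around the RefSeq start on GRCm38.p6, read in the direction of the gene, and capitals mark the interferon-stimulated response element (GAAA, 2 bases of any kind and GAAA again) on either strand. The Ifnz window lies at chr4:88781881-88782180 (+ strand) and the Ifna2 window at chr4:88683730-88684029 (- strand).
Ifnz: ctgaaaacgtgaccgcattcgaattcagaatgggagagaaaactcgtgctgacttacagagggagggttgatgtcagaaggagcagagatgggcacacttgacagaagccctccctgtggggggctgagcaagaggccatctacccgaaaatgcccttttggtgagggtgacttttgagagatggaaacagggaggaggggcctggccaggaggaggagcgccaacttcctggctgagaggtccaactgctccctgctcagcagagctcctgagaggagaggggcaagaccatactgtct
Ifna2: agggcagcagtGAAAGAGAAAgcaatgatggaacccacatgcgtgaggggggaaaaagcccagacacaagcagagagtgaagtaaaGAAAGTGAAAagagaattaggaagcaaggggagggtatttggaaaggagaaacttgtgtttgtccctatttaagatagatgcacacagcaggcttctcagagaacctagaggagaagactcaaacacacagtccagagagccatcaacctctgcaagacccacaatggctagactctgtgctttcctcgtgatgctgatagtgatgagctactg
The Ifnz window holds none of these elements and the Ifna2 window holds 2. Of the 16 measured genes of the type I interferon list, all with 1 window each, 8 had such an element (50% of windows, against 3.44% of the 32851 windows in the table). The interferon genes are related in sequence, so these 16 windows are not independent. The window of Gm13288, at chr4:88805281-88805580 (+ strand), carries the same base as that of Ifnz at 299 of 300 positions.

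Ifna2 itself was at 5.6, 5.7 and 5.4 in Prlr+/+ and at 5.9, 5.9 and 6.2 in Prlr-/- islets, and with a log2 fold change of 0.43 it was not called (standard error 0.160, adjusted p = 0.30, limma). Among the 16 measured members of the list of type I interferons and their receptor, Ifnz was the only gene called. Ifnar2, a chain of the interferon receptor, was at 7.3 on each Prlr+/+ array and at 6.8, 7.0 and 6.9 on the Prlr-/- arrays, without overlap and without passing the test (log2 fold change -0.40, adjusted p = 0.127, limma). The other chain, Ifnar1, was at 7.2 to 7.5 and at 7.0 to 7.4. Ifnb1, the interferon beta gene, had a log2 fold change of -0.23.

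Genes that interferons are known to induce were not higher as a group. Of 34 measured interferon-stimulated genes, 0 were called, 0 were higher and 3 were lower at an unadjusted p under 0.05, which over all 19938 genes holds for 4.42% (higher) and 6.47% (lower). The median log2 fold change of the list was -0.07, against 0.00 over all genes. Ifih1, a sensor of viral RNA, was at 7.7, 7.4 and 7.4 in Prlr+/+ and at 6.6, 6.9 and 7.1 in Prlr-/- islets, with a log2 fold change of -0.63. Oasl2 followed with -0.43 and Gbp3, a guanylate-binding protein, with -0.33. Classical members of the list had small differences, such as Ifit1 with -0.17, Mx1 with -0.10 and Irf7 with -0.10. Oas2, an enzyme that activates RNA decay, had the largest difference upward at 0.30 (adjusted p = 0.50, limma).

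The only other gene called through a probe set of its own was Gas5, a non-coding RNA whose introns hold small nucleolar RNAs, and its 4 probe sets disagreed. The called probe set was at 5.1, 5.1 and 5.2 in Prlr+/+ and at 5.7, 5.9 and 5.8 in Prlr-/- islets (log2 fold change 0.67, standard error 0.0928, adjusted p = 0.0183, limma). The brightest one, which represents the gene here, was at 8.5, 7.7 and 7.7 and at 8.2, 8.4 and 7.7, a log2 fold change of 0.13. The remaining ones had log2 fold changes of 0.07 and 0.30. The groups thus overlapped in the brightest probe set and not in the called one, whose call was lost without Prlr-/- replicate 2 or 3, without Prlr+/+ replicate 1 or 3, in the 6 arrays alone, with the acinar covariate and after median centring or quantile normalization (adjusted p 0.00417 to 0.182 over 22 alternatives, limma). None of the 5 measured snoRNA host genes was called through its brightest probe set, and their median log2 fold change was 0.13.

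A further 5 named probe sets were called, each of which names several genes of 1 family. The genes of 3 of them belong to the group of Speer1, with log2 fold changes of 0.67 to 0.70, and 2 name olfactory receptors, with 0.63 for Olfr55 and Olfr1564 and 0.77 for a group with Olfr1380. The 11 called probe sets without a gene symbol comprise the 3 lower ones and 8 higher ones. In the lower ones the values fell by 2.40, 2.23 and 0.67 on the log2 scale. The first of these was at 8.7, 9.4 and 9.4 in Prlr+/+ and at 6.5, 6.9 and 6.9 in Prlr-/- islets, the second at 8.7, 9.2 and 9.3 and at 6.8, 6.9 and 6.8. The largest increase, a log2 fold change of 3.67, was from 3.8, 4.7 and 3.5 to 7.3, 8.0 and 7.7. What these unnamed probe sets measure, and whether each of them measures a gene, is not given in the annotation used here.

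The number of calls depended on the probe sets and arrays that entered the test. When the model was refitted to the 23410 named probe sets alone, the count was 88 (0.376%), 73 higher and 15 lower. The refit changed the spread that limma shares between probe sets as well as the number of tests. Through their own probe sets, 19 genes were then called, 9 higher and 10 lower. The lower ones were Sncg, Hapln1, Prph, Ccdc162, Nefl, Mpeg1, Gm13375, Ostm1, Nr1d2 and Zkscan2. The higher ones were Ifnz, 2610005L07Rik, Mir680-1, 1700024J04Rik, Vmn2r-ps104, Ssxb10, Tdpoz8, Nyx and Krtap5-1. Without Prlr+/+ replicate 2 the count over all probe sets was 172, with 35 of the 36 among them, and in a fit of the 6 non-pregnant arrays alone it was 0, with 2429 probe sets higher and 1618 lower at an unadjusted p under 0.05. After median centring 23 were higher and 10 lower.

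Most genes of the prolactin receptor pathway differed little, and some were lower. Of 33 measured members, 0 were called, 0 were higher and 5 were lower at an unadjusted p under 0.05, and the median log2 fold change was -0.03. The share of all genes that were lower was 6.47%. Without overlap between the genotypes, 6 members lay lower and 0 higher, which over all genes holds for 6.82% and 4.94%. Jak2 was at 7.5 to 7.7 in Prlr+/+ and at 7.4 to 7.7 in Prlr-/- islets, Stat5a at 7.1 to 7.3 and at 7.0 to 7.3, and Stat5b at 8.1 to 8.3 and at 7.9 to 8.1. Of the feedback inhibitors, Socs2 had a log2 fold change of 0.30, Socs3 of 0.03 and Cish of 0.10. Cish varied within the genotypes, with 7.1, 6.4 and 7.6 in Prlr+/+ and 7.6, 7.6 and 6.2 in Prlr-/- islets, and the groups overlapped fully. Sos1, an activator of Ras, was at 7.1 to 7.4 and at 6.7 to 6.9 (log2 fold change -0.40). The phosphatases Ptpn2 and Ptpn11 had log2 fold changes of -0.33 and -0.30.

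The member with the largest difference was Bcl6, a transcriptional repressor whose gene is known to be regulated by STAT5. It was at 6.5, 6.8 and 6.8 in Prlr+/+ and at 6.1, 5.3 and 5.7 in Prlr-/- islets, so that the genotypes did not overlap. The log2 fold change of -1.0 was not called (standard error 0.259, adjusted p = 0.175, limma). A Bcl6 promoter window is shown for its STAT5 letters TTCNNNGAA, in capitals, which read the same on both strands. It lies at chr16:23981234-23981533 (- strand, GRCm38.p6, RefSeq).
Bcl6: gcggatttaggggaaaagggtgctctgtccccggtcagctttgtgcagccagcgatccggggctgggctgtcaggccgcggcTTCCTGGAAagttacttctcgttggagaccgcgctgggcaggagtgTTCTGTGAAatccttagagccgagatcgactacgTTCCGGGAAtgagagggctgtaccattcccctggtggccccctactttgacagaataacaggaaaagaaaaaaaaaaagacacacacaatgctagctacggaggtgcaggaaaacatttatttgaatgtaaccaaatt
This window holds 3 such sites, and the other Bcl6 window, at chr16:23988803-23989102 (- strand), holds 1. Of all promoter windows, 8.3% hold at least 1, and of the 32 windows found for 24 genes of the pathway list 4 did (12.5%), in Bcl6, Cish and Socs3. The match is to letters only, and binding was not measured. Whether the lower Bcl6 value has to do with STAT5, which can act in either direction on a gene, was not tested.

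The study's pregnancy signature, 12 genes chosen for their induction in pregnant islets, differed little between the genotypes without pregnancy. None was called, and 0 were higher or lower at an unadjusted p under 0.05. Their log2 fold changes ran from -0.30 for Matn2 to 0.30 for Tnfrsf11b with a median of 0.05, which is -0.05 after median centring. Tph1 and Tph2, the enzymes that begin serotonin synthesis, had values of -0.07 and 0.10.

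Beta cell genes were measured at similar or slightly lower levels in Prlr-/- islets. Of 32 measured genes, 0 were called, 5 were lower and 0 higher at an unadjusted p under 0.05, where 6.47% of all genes were lower, and the median log2 fold change was -0.08. Mafa, a transcription factor of mature beta cells, was at 8.8, 8.6 and 8.6 in Prlr+/+ and at 8.1, 8.4 and 8.4 in Prlr-/- islets (log2 fold change -0.37). Ptprn, a protein of insulin granules, had a log2 fold change of -0.33, Glp1r, the receptor of the incretin GLP-1, of -0.30, and the glucose transporter Slc2a2 of -0.23. The median was -0.02 without Prlr-/- replicate 1, the array with the lowest mean of the list (10 against 10.2 on each of the other arrays). In that array the acinar markers were highest, and with the mean of the acinar markers as a covariate the median of the beta cell list was -0.04, with 2 genes lower. After median centring 10 were lower and the median was -0.18, while 15% of all genes were lower.

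Among 15 measured markers of the other islet endocrine cells, Npy, a neuropeptide, and Slc38a5, an amino acid transporter of alpha cells, had the largest differences, while 9 markers had a log2 fold change above 0 and 4 below 0, with a median of 0.07. Npy was at 10, 9.0 and 7.7 in Prlr+/+ and at 8.1, 7.7 and 7.8 in Prlr-/- islets. The log2 fold change was -1.03, yet Prlr+/+ replicate 3 lay within the Prlr-/- range. Slc38a5 was at 10.6, 10.2 and 10 against 9.7, 9.5 and 9.6, without overlap (log2 fold change -0.67, adjusted p = 0.262, limma). The hormone genes Sst and Ppy had log2 fold changes of 0.03 and 0.10.

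Across the 19938 genes, 97 had a fold change of at least 1.5 between the genotype means, 52 of them higher and 45 lower, and only Ifnz (0.00502% of the genes) was called. At an unadjusted p under 0.05 there were 881 genes higher and 1289 lower. The split depended on the scaling, with 241 higher and 2985 lower after median centring and 546 and 1458 after quantile normalization. The 3 arrays of one genotype lay wholly above those of the other for 984 genes with Prlr-/- higher (4.94%) and for 1359 genes with Prlr-/- lower (6.82%). The direction varied with brightness. When all probe sets were ranked by mean value and split into 5 bins, the dimmest bin held 494 higher and 149 lower at an unadjusted p under 0.05 and the brightest 220 and 787. The median log2 fold changes of these bins were 0.03 and -0.07.

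**Figure D2:**
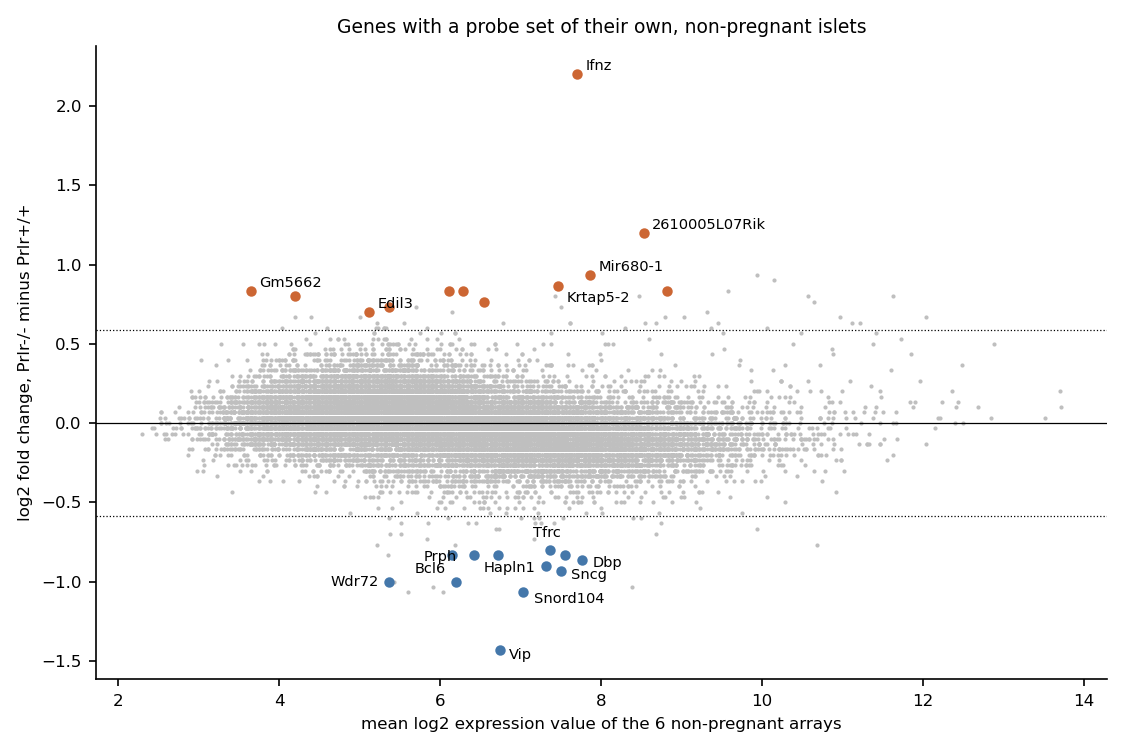
Log2 fold change (Prlr-/- minus Prlr+/+) against the mean log2 value of the 6 non-pregnant arrays, 1 grey point for each of 19938 genes. Coloured points are the 12 largest increases and 12 largest decreases named in the text, and dotted lines mark a fold change of 1.5. Ifnz at 2.20 stands apart from all other genes.

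The 12 largest decreases among genes whose genotypes did not overlap came from several kinds of genes, and none was called. Vip, which encodes vasoactive intestinal peptide of autonomic nerves, was at 7.7, 8.1 and 6.6 in Prlr+/+ and at 6.1, 5.8 and 6.2 in Prlr-/- islets (log2 fold change -1.43, standard error 0.433, adjusted p = 0.227, limma). Snord104, a small nucleolar RNA, had a log2 fold change of -1.07, Wdr72 of -1.0, and Hapln1, a protein that links hyaluronan to proteoglycans, of -0.90. Wdr72 was at 5.7 to 6.1 in Prlr+/+ and at 4.8 to 5.0 in Prlr-/- islets. St8sia5, a sialyltransferase, Cdc14b, a phosphatase, and Ccdc162 had log2 fold changes of -0.83 each. Tfrc, the transferrin receptor that takes up iron, was at 7.5, 7.4 and 8.4 against 7.3, 7.3 and 6.3 (log2 fold change -0.80), a difference carried by replicate 3 of both genotypes. Bcl6, the clock gene Dbp and the neuronal genes Sncg and Prph make up the rest.

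The 12 largest increases, Ifnz included, named fewer genes of known function. 2610005L07Rik was at 7.2, 8.1 and 8.5 in Prlr+/+ and at 8.9, 9.2 and 9.3 in Prlr-/- islets (log2 fold change 1.20, adjusted p = 0.155, limma). The microRNA genes Mir680-1 and Mir680-2 had log2 fold changes of 0.93 and 0.83. Krtap5-2 and Krtap5-4, keratin-associated proteins of hair, had 0.87 and 0.77. Edil3, a matrix protein that binds integrins, had 0.70, and Vmn2r-ps104, Gm5662, 1700024J04Rik, Ssxb10 and Actl11 lay between 0.73 and 0.83. Of these 12, 4 fell in the dimmest 2 of the 5 bins, against 0 of the 12 decreases. Those 2 bins held 7138 and 7077 of all 35511 probe sets, so 4 of 12 is not an excess. A list of 21 keratin-associated and cornified envelope genes was chosen after these values were seen. It had 11 genes higher and 0 lower at an unadjusted p under 0.05 and a median log2 fold change of 0.27. Over all genes 4.42% were higher.

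The circadian clock consists of the activators Clock and Bmal1 (Arntl in the annotation) and of the repressors of the Per, Cry and Nr1d families that they induce through E-boxes. Its output factors Dbp, Tef and Hlf bind D-boxes. Of 16 measured clock genes, 0 were called, 8 were lower and 0 higher at an unadjusted p under 0.05, and the median log2 fold change was -0.27. Over all genes 6.47% were lower and 4.42% higher. The count of lower genes was 5 to 8 when any non-pregnant array was left out. It was 8 after median centring and after quantile normalization, where 15% and 7.31% of all genes were lower. All 8 are repressors or output factors, but of the 16 measured genes only Clock and Arntl are activators. The repressors Cry1 and Cry2 had log2 fold changes of -0.10 and -0.27, neither at an unadjusted p under 0.05.

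Dbp was at 8.8, 8.1 and 7.7 in Prlr+/+ and at 7.4, 7.4 and 7.2 in Prlr-/- islets (log2 fold change -0.87, adjusted p = 0.248, limma). Nr1d2 was at 9.0, 8.8 and 8.6 and at 8.1, 8.3 and 8.2 (log2 fold change -0.60, adjusted p = 0.123, limma), and its relative Nr1d1 at 8.8 to 9.2 and at 8.4 to 8.5. In all 3 genes the genotypes did not overlap, and Dbp varied more within Prlr+/+ than within Prlr-/- islets. Per1 had a log2 fold change of -0.50, Per3, Tef and Hlf of -0.37 each, and Per2 of -0.27. Arntl was at 6.1, 6.5 and 6.8 in Prlr+/+ and at 7.0, 6.7 and 6.7 in Prlr-/- islets, so that the genotypes overlapped (log2 fold change 0.33). Clock had 0.03 and Nfil3, which opposes Dbp at D-boxes, 0.23. The hour at which islets of each genotype were taken is not given in the sources used here. Its part in the values of the clock genes was not tested and cannot be told apart from that of the genotype.

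The Per1 promoter window at chr11:69098699-69098998 (+ strand, GRCm38.p6, RefSeq) is shown with its E-box, the palindrome CACGTG through which the clock activators act, in capitals.
Per1: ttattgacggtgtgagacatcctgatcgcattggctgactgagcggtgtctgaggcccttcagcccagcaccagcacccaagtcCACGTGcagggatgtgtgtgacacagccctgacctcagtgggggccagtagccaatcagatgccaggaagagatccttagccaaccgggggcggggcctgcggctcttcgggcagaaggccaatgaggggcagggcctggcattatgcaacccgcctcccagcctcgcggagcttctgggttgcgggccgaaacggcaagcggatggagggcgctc
An E-box was found in 6 of the 19 windows of 14 clock genes (31.6%), those of Bhlhe41, Ciart, Cry1, Per1 and Tef, against 7.15% of all windows. Among the 8 lower genes, Per1 and Tef had it. Per3 had the D-box TTATGTAA in its window, a motif of 0.938% of all windows. The windows of Nr1d1 and Nr1d2 held none of the motifs searched.

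**Figure D3:**
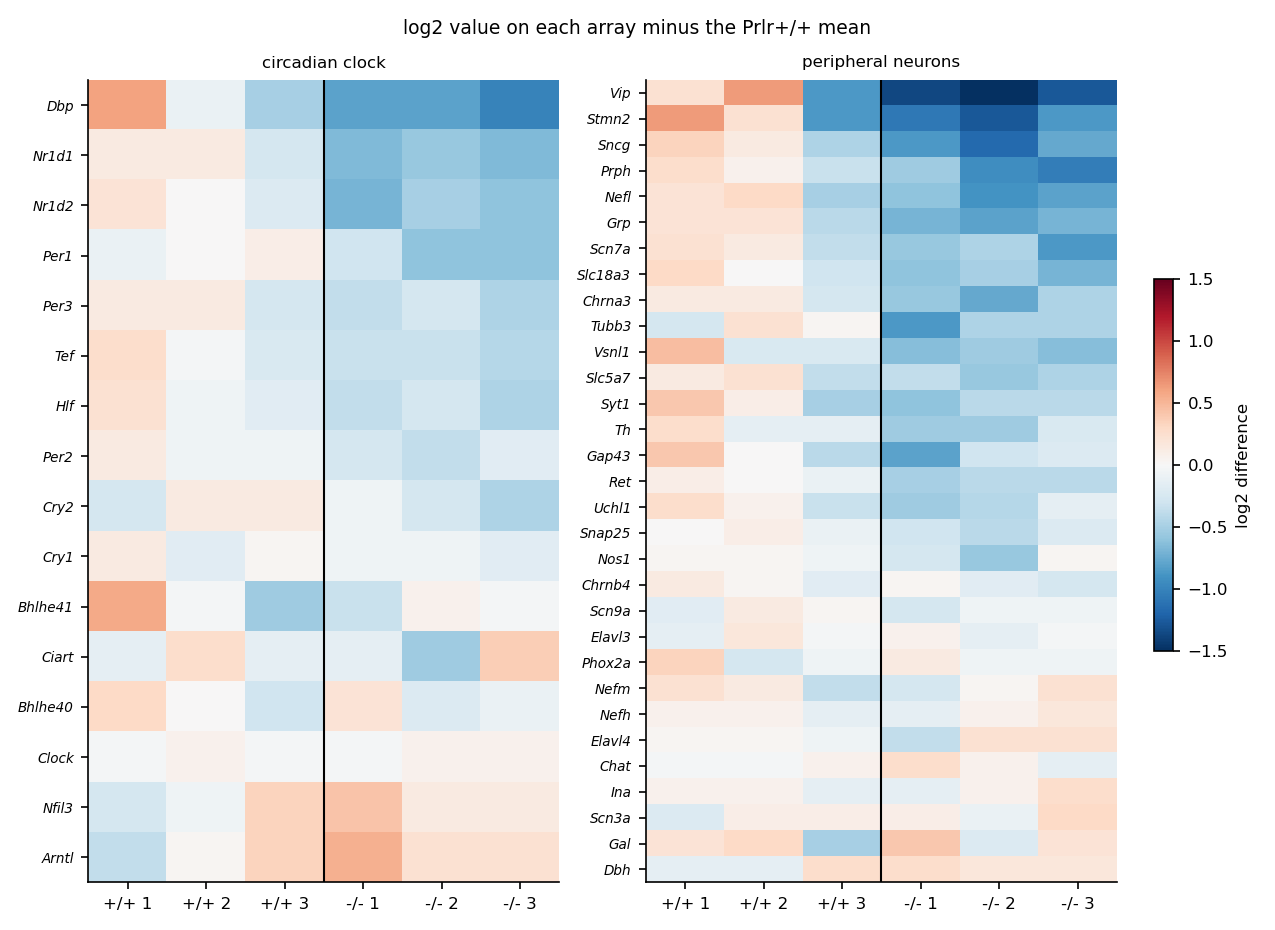
Difference of the log2 value on each array from the Prlr+/+ mean of the gene, for 16 clock genes (left) and 31 genes of peripheral neurons (right), with blue for lower and red for higher. Columns are the 3 Prlr+/+ and 3 Prlr-/- arrays, and genes are ordered by log2 fold change, from -0.87 for Dbp to 0.33 for Arntl and from -1.43 for Vip to 0.20. The Prlr-/- columns are blue in the upper rows, and Prlr+/+ replicate 3 is bluer than the rest of its group in many neuronal genes.

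Genes of peripheral neurons were among those with the largest decreases. Islets are innervated by autonomic nerves, and ganglion cells can lie beside them. The list of 31 measured neuronal genes was put together after the values of Vip, Sncg and Prph were seen, so its counts only describe it. Of these genes 17 were lower and 0 higher at an unadjusted p under 0.05, and 13 lay lower without overlap, which over all genes holds for 6.47% and 6.82%, and the median log2 fold change was -0.43. No member was called over all probe sets.

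Sncg, a synuclein of peripheral neurons, was at 8.3, 8.1 and 7.5 in Prlr+/+ and at 7.1, 6.8 and 7.2 in Prlr-/- islets (log2 fold change -0.93, adjusted p = 0.127, limma). Prph and Nefl, intermediate filament proteins of axons, had log2 fold changes of -0.83 and -0.77. Stmn2, a regulator of growth cones, was at 7.2, 6.8 and 5.7 against 5.5, 5.3 and 5.7, so that Prlr+/+ replicate 3 reached the Prlr-/- range. Grp, a peptide of parasympathetic nerves, had a log2 fold change of -0.73. Of the genes of acetylcholine signalling, Slc18a3, the vesicular transporter, and Chrna3, a subunit of the ganglionic nicotinic receptor, had -0.60 each, and Slc5a7, the choline transporter, had -0.47. Th, the enzyme that begins catecholamine synthesis, was at 9.3 to 9.7 and at 8.9 to 9.2. Not every neuronal gene was lower, since Phox2a had a log2 fold change of 0.00 and Gal, the gene of galanin, of 0.13.

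The mean of the neuronal list was 6.93, 6.87 and 6.53 on the Prlr+/+ arrays and 6.38, 6.35 and 6.47 on the Prlr-/- arrays, without overlap, and Prlr+/+ replicate 3 lay close to the Prlr-/- arrays. Without Prlr+/+ replicate 1, the highest array, the median log2 fold change of the list was -0.27. Markers of Schwann cells, the glia of peripheral nerves, had 1 of 9 genes lower at an unadjusted p under 0.05 (Cdh19, log2 fold change -0.37) and a median of -0.03. Sox10, a defining factor of these glia, was at 6.1 to 6.3 in both genotypes. In RNA of whole islets, fewer cells of a type and less RNA per cell cannot be told apart, here and for the cell types that follow.

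Acinar cells, which make the digestive enzymes of the exocrine pancreas, are carried over when islets are isolated. Their markers were present on all 6 arrays and highest in Prlr-/- replicate 1. Of 31 measured markers, 28 had a log2 fold change above 0 and 2 below 0, with a median of 0.53, and 0 were called or had an unadjusted p under 0.05. In the fit of the 6 non-pregnant arrays alone 6 markers were higher at an unadjusted p under 0.05, 3 were without Prlr-/- replicate 2 and 1 was without Prlr-/- replicate 3. The list mean was 9.12, 9.63 and 9.27 on the Prlr+/+ arrays and 10.3, 9.38 and 9.71 on the Prlr-/- arrays, so that the genotypes overlapped. Prlr-/- replicate 1 was the single highest array for 26 of the 31 markers and Prlr+/+ replicate 1 the single lowest for 20. Without Prlr-/- replicate 1 the median was 0.28.

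Zg16, a protein of zymogen granules, was at 9.5, 10 and 9.6 in Prlr+/+ and at 11.3, 9.9 and 10.6 in Prlr-/- islets (log2 fold change 0.90, adjusted p = 0.524, limma). The lipase-related Pnliprp2 had a log2 fold change of 0.83, and Cela2a, an elastase, Pla2g1b, a phospholipase, and Cuzd1 had 0.80 each. Ctrb1, a chymotrypsinogen, was at 12.5 to 12.8 in Prlr+/+ and at 12.9 to 13.4 in Prlr-/- islets, the only marker whose genotypes did not overlap. Transcription factors of acinar cells had smaller differences, with 0.33 for Rbpjl, 0.00 for Ptf1a and -0.10 for Bhlha15. Prss3, a trypsinogen, went the other way with -0.60.

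The regenerating proteins, secreted mainly by acinar cells, were also highest on average in Prlr-/- replicate 1. Reg1 was at 9.5, 10 and 8.9 in Prlr+/+ and at 11.3, 9.6 and 10.3 in Prlr-/- islets, and Reg2 at 5.5, 7.8 and 8.1 and at 8.7, 6.7 and 8.2. The median log2 fold change of the 7 genes was 0.33 and turned to -0.07 without Prlr-/- replicate 1. Of 16 duct cell markers, 1 was higher (Krt19, a keratin, log2 fold change 0.33) and 1 lower (Epcam, an adhesion protein, -0.23) at an unadjusted p under 0.05. When the mean of the acinar markers on each array was entered as a covariate, 21 probe sets were called, all of them among the 36, and the log2 fold change of Ifnz was 2.09 (adjusted p = 0.0036, limma). The median of the neuronal list was then -0.37 and that of the clock list -0.24.

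**Figure D4:**
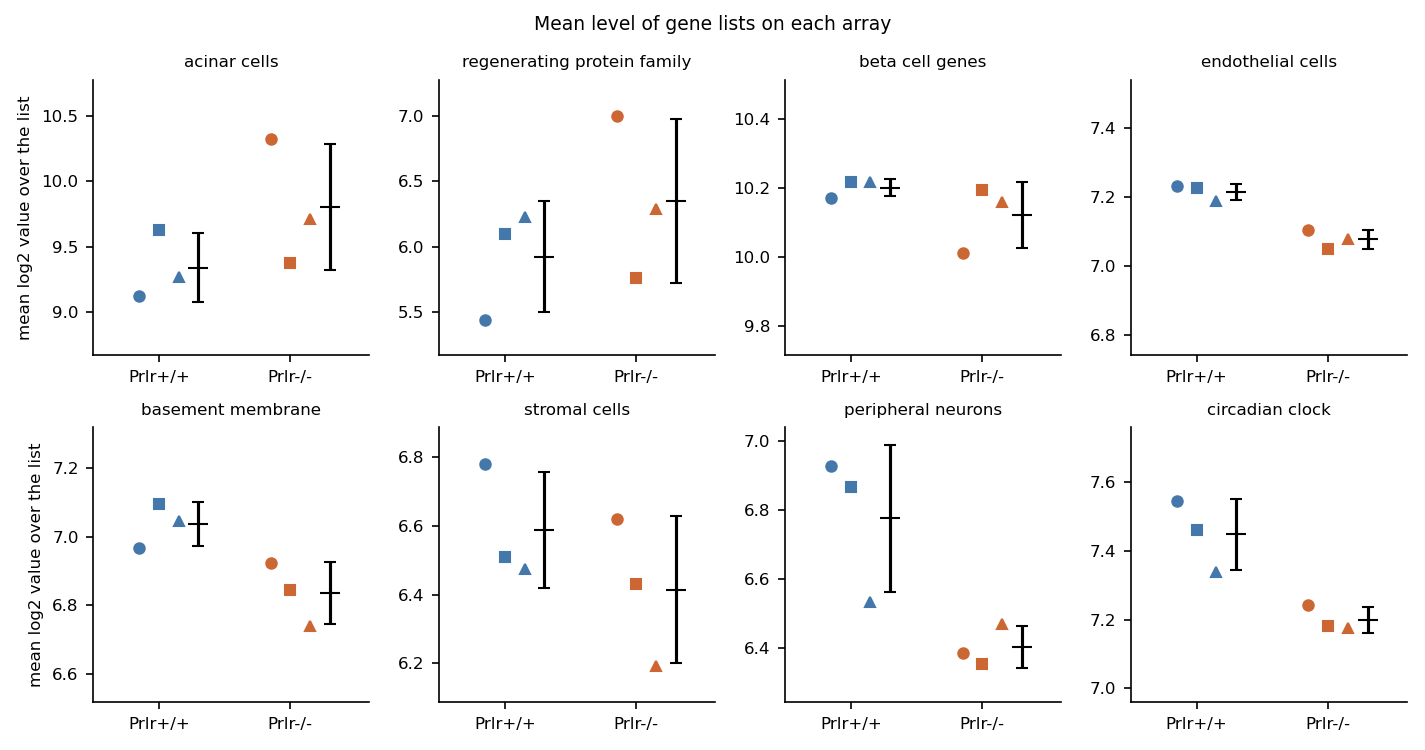
Mean log2 value over each of 8 gene lists on the 3 Prlr+/+ (blue) and 3 Prlr-/- (orange) arrays, with circles, squares and triangles for replicates 1 to 3 and the mean ± SD (n = 3) beside them; axes do not start at 0 and the first 2 panels span a wider range. The acinar mean is highest in Prlr-/- replicate 1 (10.3) and overlaps between genotypes, whereas the endothelial means do not overlap (7.19 to 7.23 against 7.05 to 7.10).

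Endothelial markers were slightly lower in Prlr-/- islets. Islets hold a dense capillary network, and of 26 measured markers 8 were lower and 0 higher at an unadjusted p under 0.05, with 0 called. Of all genes 6.47% were lower. The list mean was 7.19 to 7.23 on the Prlr+/+ arrays and 7.05 to 7.10 on the Prlr-/- arrays, and the median log2 fold change was -0.15. Emcn, a sialomucin of capillaries, was at 8.4, 8.3 and 8.1 in Prlr+/+ and at 7.9, 7.6 and 7.7 in Prlr-/- islets (log2 fold change -0.53, adjusted p = 0.182, limma). Pecam1 was at 7.5 to 7.8 and at 7.2 to 7.4, and Cdh5, the cadherin of endothelial junctions, at 6.8 to 6.9 and at 6.4 to 6.7. Ramp2, Eng, Cd34, Tie1 and Erg make up the 8. Between 5 and 8 markers were lower whichever non-pregnant array was left out. After median centring 11 were lower, where 15% of all genes were, and after quantile normalization 8, where 7.31% were.

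Of 22 measured basement membrane genes, whose products endothelial cells lay down around islet capillaries, 8 were lower and 0 higher at an unadjusted p under 0.05. The median log2 fold change was -0.23, and 6.47% of all genes were lower. Col15a1, a collagen of this layer, was at 7.2, 7.3 and 7.2 in Prlr+/+ and at 6.9, 6.7 and 6.6 in Prlr-/- islets (log2 fold change -0.50, adjusted p = 0.0797, limma). Col4a1 and Col4a2, the chains of its main collagen, had log2 fold changes of -0.33 and -0.40, and the laminin chain Lamc1 had -0.37. The count of lower genes was 3 without Prlr-/- replicate 3, Prlr+/+ replicate 2 or Prlr+/+ replicate 3. It was 13 after median centring, where 15% of all genes were lower, and 9 after quantile normalization, where 7.31% were.

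Stromal markers were less even. Of 26 measured, 4 were lower and 0 higher at an unadjusted p under 0.05, against 6.47% lower over all genes. They were Sparc, a matrix protein, with -0.53, the intermediate filament Vim with -0.50, Mgp with -0.47 and Pdgfrb, a receptor of pericytes, with -0.33. Dcn, a proteoglycan of fibroblasts, was at 7.8, 6.9 and 6.4 in Prlr+/+ and at 6.9, 6.6 and 5.6 in Prlr-/- islets, so that the genotypes overlapped. The fibrillar collagens Col1a1 and Col1a2 had log2 fold changes of -0.17 and -0.30. Prlr+/+ replicate 1 was the single highest array for 16 of the 26 markers and Prlr-/- replicate 3 the single lowest for 18. The median of -0.13 was -0.06 without Prlr-/- replicate 3, -0.08 without Prlr+/+ replicate 1, -0.22 without Prlr+/+ replicate 2 and -0.28 without Prlr-/- replicate 1.

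Markers of immune cells moved in both directions. Of 23 markers of macrophages and dendritic cells, Cd74, Csf1r and Laptm5 were lower and Lyz1 was higher at an unadjusted p under 0.05, with a median log2 fold change of -0.13 that was -0.03 without Prlr+/+ replicate 1. The 14 lymphocyte markers had a median of 0.15, which was 0.05 after median centring. Ms4a1, the B cell antigen CD20, was at 3.9, 4.0 and 4.1 in Prlr+/+ and at 4.3, 4.4 and 4.5 in Prlr-/- islets, in the range of dim probe sets. Adipocyte markers had a median of 0.00.

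**Figure D5:**
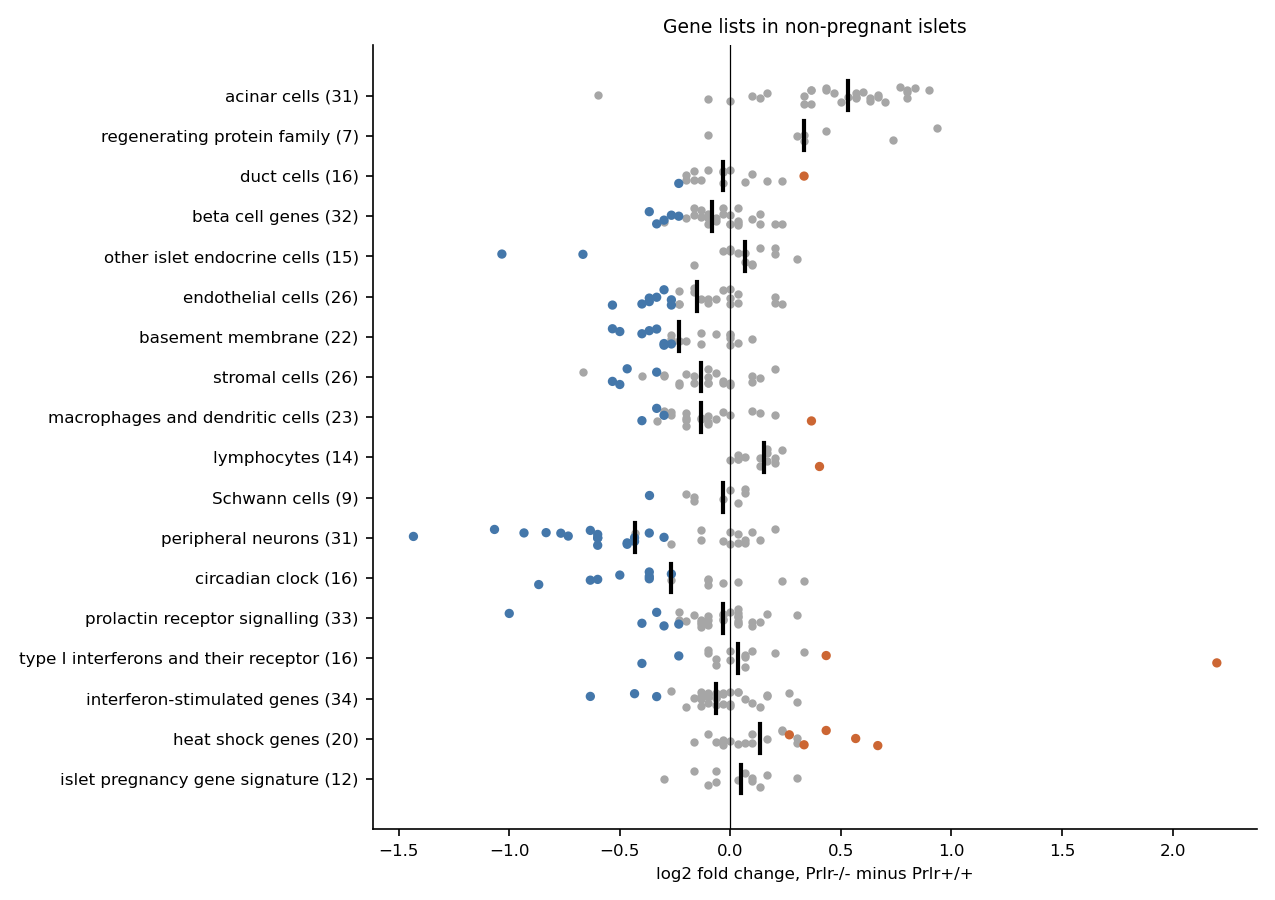
Log2 fold change (Prlr-/- minus Prlr+/+) of each gene in 18 lists, with the number of measured genes in brackets and the list median as a black bar. Grey points have an unadjusted p of 0.05 or more in limma, and orange and blue points are higher and lower at an unadjusted p under 0.05. Acinar markers sit to the right with no coloured point (median 0.53), clock and neuronal genes to the left (medians -0.27 and -0.43).

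Among other gene groups, 5 of 20 heat shock genes were higher and 0 lower at an unadjusted p under 0.05. Their median log2 fold change was 0.13, and 4.42% of all genes were higher. Hsph1, a chaperone of the Hsp110 group, was at 9.3, 8.4 and 8.4 in Prlr+/+ and at 9.1, 9.6 and 9.4 in Prlr-/- islets, and Prlr+/+ replicate 1 lay within the Prlr-/- range. The count of higher heat shock genes was 9 without Prlr+/+ replicate 1, 6 without Prlr-/- replicate 1 and 0 without any one of the other 4 non-pregnant arrays. It was 0 after median centring, where 1.21% of all genes were higher. After quantile normalization it was 4, and with the acinar mean as a covariate 9. Genes of cholesterol and fatty acid synthesis had 4 of 27 lower, among them Scd1, a fatty acid desaturase, with -0.50 and Fasn, the fatty acid synthase, with -0.30. Genes of mitochondrial respiration had 4 of 34 lower, with -0.33 for Cox7a2, a subunit of cytochrome c oxidase. The count of lower respiration genes was 12 after median centring, where 15% of all genes were lower, and 1 without Prlr+/+ replicate 1, against 6.47% of all genes in the fit of all arrays. In both lists 0 genes were higher at an unadjusted p under 0.05, and without Prlr+/+ replicate 1 their medians of -0.10 and -0.13 were -0.02 and -0.06.

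Of 26 measured DNA replication genes, 3 were lower and 1 was higher at an unadjusted p under 0.05, and the median log2 fold change was -0.05. The lower ones were the helicase genes Mcm6, Mcm2 and Mcm5 with -0.50, -0.43 and -0.30, and the higher one was Uhrf1, which helps to maintain DNA methylation, with 0.43. Of 23 mitosis genes, 0 were lower or higher at an unadjusted p under 0.05. Of 14 glucocorticoid and progesterone targets, 2 were higher, the metallothionein genes Mt1 and Mt2 with 0.33 and 0.63, and 1 was lower, the clock gene Per1. Of the 40 genes next to Prlr on the chromosome, 20 on each side, 0 were called, 2 were higher and 1 was lower at an unadjusted p under 0.05. Rxfp3, a receptor of relaxin 3, was at 5.1, 5.4 and 5.2 in Prlr+/+ and at 5.6, 5.7 and 5.9 in Prlr-/- islets (log2 fold change 0.50, adjusted p = 0.113, limma). Spef2, a protein of cilia, had 0.27, and Dnajc21, a cochaperone of ribosome assembly, was at 7.5 on each Prlr+/+ array and at 7.1 to 7.2 on the Prlr-/- arrays. The median over these 40 genes was 0.03, which was -0.07 after median centring.

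The remaining lists had few genes at an unadjusted p under 0.05. Of 36 measured cytosolic ribosomal protein genes, Rpl14 was higher and Rps18 lower, and of 29 genes of endoplasmic reticulum folding and stress 0 were higher or lower. Among 20 receptors of hormones and growth factors, Nr3c2, the mineralocorticoid receptor, Thra, a thyroid hormone receptor, and Glp1r were lower. Among 20 genes kept silent in mature beta cells, Nfib, Rest and Igfbp4 were lower, with a median log2 fold change of -0.10 that turned to 0.02 without Prlr+/+ replicate 1. In the list of amino acid supply 1 gene was higher and 2 were lower of 22, and of the 40 genes next to Ifnz 2 were higher and 2 lower. Of 27 immediate early genes 1 was lower and of 22 serotonin genes 2 were lower, with 0 higher in both lists.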

How the data were processed

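RNA of islets isolated with collagenase was hybridised to Affymetrix MoGene_1.0_ST arrays. The deposited log2 values are the authors' output of robust multichip analysis, in which background correction and quantile normalization come before the probes of a set are summarised, so a change common to most probe sets is removed. Values have 1 decimal. No scanner files were analysed here, and 486 probe sets repeat the values of an earlier one. Depth has no meaning for arrays, and the precision is limited by 3 arrays per group.

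One model of 4 group means was fitted to all 35511 probe sets and all 12 arrays with lmFit and eBayes of limma 3.58.1 in R 4.3.3. In this fit the 6 arrays of P9.5 pregnant mice gave the spread only, and the Prlr-/- mice among them carried a progesterone pellet. These 6 arrays also entered the 12-array means that chose the probe set of a gene and ranked the brightness bins. Among the alternatives, the acinar covariate and the quantile normalization used them too. Calls needed a fold change of at least 1.5 and a Benjamini-Hochberg adjusted p under 0.05. An unadjusted p under 0.05 only describes lists. Lists and members were chosen with earlier results of these data known. There were 34 such lists, and a list of peripheral neuron genes and one of keratin-associated genes were added after values were seen. The named genes are all called named probe sets, the 12 largest increases and decreases at an unadjusted p under 0.05 without overlap, and up to 4 genes per list. The exceptions, chosen after their values were seen, are pathway, marker and neuronal genes given for their role. The calling was also run on simulated data with independent noise on each probe set and array. Such data lack signals shared between probe sets, so they give no rate of false calls for the real arrays. Symbols came from the array annotation, 21698 of them matched to RefSeq through Entrez identifiers, and promoter windows from RefSeq on GRCm38.p6.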

Additional observations from a re-analysis of the deposited data

How the results depend on the processing

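Across 24 alternatives the count of 36 called probe sets stayed within 1.5 times in 20 of them (24 to 49). It was 0 in the fit of the 6 non-pregnant arrays alone, 88 with only named probe sets, 21 with the acinar mean as a covariate, and 24 to 172 when each array was left out in turn, with the 172 calls found without Prlr+/+ NP replicate 2. With the replicate number as a block it was 29. Same-numbered arrays deviated together (correlation over 0.1) in 7 of 18 pairs. Whether the numbers pair the arrays cannot be settled from such correlations, and the main model leaves the numbers out. The call of Ifnz held in 21 of 22 alternatives, with log2 fold changes of 2.00 to 2.40, and was lost in the fit of 6 arrays (adjusted p = 0.127, limma). That of the Gas5 probe set was lost in 8 of 22. The median log2 fold change of the acinar list was 0.034 with the acinar covariate, which is built from the same genes. That of the endothelial list was -0.25 after median centring, a shift of -0.1 common to all probe sets, and -0.18 to -0.12 when each array was left out. The log2 fold changes of the 24 largest genes kept their sign in all 525 refits. They were chosen for genotypes without overlap, which fixes the sign whenever an array is left out. The unchanged signs are therefore no test of these genes. The array number and the signal of dim probe sets limit what could be called.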
